A study of Mus musculus with 8 samples.

Results

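The heat shock chaperone genes comprised 10 members: Hspa1a, Hspa1b, Hspa8, Hspa5, Hsp90aa1, Hsp90ab1, Hsph1, Dnajb1, Hspb1 and Hspd1. A probe set, the group of probes that reads a transcript on an Affymetrix array, was counted for a member if it was annotated to that symbol alone. This gave 23 probe sets for 9 members, of 18193 genes with a probe set in all, and Hsp90ab1 is not analysed here. The series used 8 arrays of total RNA from mouse embryos, 4 from FAK mutants and 4 from controls. FAK is focal adhesion kinase, a tyrosine kinase of integrin adhesion sites, and its own transcript is not analysed here. In each of 4 origins there was 1 control and 1 mutant array, so mutant and control were compared without replicates inside an origin.

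The p75 control and the p75 mutant were cranial neural crest cells sorted for p75, each from 3 pooled embryos at E11.5, dissected from head and thorax. p75 is the surface receptor encoded by Ngfr, which marks neural crest cells. The other 6 arrays carried the labels LM, OFT and UM, each as a control and a mutant, and these letters are kept because the labels do not spell them out. The labels of these 6 arrays give no embryonic day of their own, so only the series title bears on their stage. That title calls the controls wild type. The FAK allele, any Cre driver and the number of embryos behind an LM, OFT or UM array are not given in the sources used here. Sorting and pooling were recorded for the p75 pair alone. Sorting, pooling, any difference in stage and origin therefore cannot be told apart in any comparison of p75 cells with the rest. The markers fitted the p75 label: 5 of 5 tested neural crest genes passed as higher in p75 cells, with a summed intensity of 5944 and 7299 against 362 to 1004 on the other arrays. Ngfr itself was higher by 3.58 ± 0.17 and Sox10, a crest transcription factor, by 4.55 ± 0.16 on the log2 scale. Ngfr is among the 5 crest genes but, as the gene of the receptor used for sorting, gives no independent check of the label. The sum of 7 cardiac muscle markers was 15160 in the control and 17491 in the mutant of OFT, against 47.3 to 447 elsewhere.

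Chaperones bind unfolded or partly folded proteins and keep them from aggregating. Under stress, heat shock factors bind heat shock elements, inverted repeats of the letters GAA, and raise transcription of inducible members such as Hspa1a and Hspa1b, while Hspa8 is the constitutive cytosolic HSP70. DnaJ proteins deliver clients to HSP70 and stimulate its ATPase, HSP110 proteins exchange its nucleotide, HSP90 matures kinases and steroid receptors, small heat shock proteins hold unfolded clients without using ATP. BiP (Hspa5) serves the endoplasmic reticulum, and HSP60 (Hspd1) is the chaperonin of the mitochondrial matrix. In embryos many of these genes are transcribed without added stress.

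Promoter sequences are shown for 5 of the members whose promoter held letters matching a heat shock or endoplasmic reticulum stress element. Among them, Hspa1a and Hspa1b are near-identical copies. RefSeq promoters of build GRCm38.p6 were found for 7 of the 10 members. Each run below is the 250 bases before the annotated start, 5′ to 3′ on the gene's strand, and capitals mark a match to a heat shock element of 2 adjoining units (GAANNTTC or TTCNNGAA), to an element of 3 units (GAANNTTCNNGAA or TTCNNGAANNTTC), or, in Hspa5, to the endoplasmic reticulum stress element (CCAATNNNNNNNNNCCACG or its reverse complement). The windows lie at chr17:34972157-34972406 on the minus strand for Hspa1a, chr17:34959239-34959488 on the minus strand for Hspa1b, chr5:135887669-135887918 on the plus strand for Hspb1, chr1:55087933-55088182 on the minus strand for Hspd1 and chr2:34771840-34772089 on the plus strand for Hspa5.
Hspa1a: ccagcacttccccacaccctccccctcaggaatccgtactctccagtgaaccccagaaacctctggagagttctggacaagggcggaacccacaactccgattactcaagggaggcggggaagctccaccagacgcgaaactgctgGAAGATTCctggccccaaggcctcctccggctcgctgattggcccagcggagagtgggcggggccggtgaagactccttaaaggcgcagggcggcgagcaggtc
Hspa1b: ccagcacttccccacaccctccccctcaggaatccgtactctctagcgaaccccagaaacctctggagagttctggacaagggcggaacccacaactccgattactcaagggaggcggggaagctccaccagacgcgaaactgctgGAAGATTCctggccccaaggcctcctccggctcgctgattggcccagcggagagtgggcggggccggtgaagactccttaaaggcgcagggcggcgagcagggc
Hspb1: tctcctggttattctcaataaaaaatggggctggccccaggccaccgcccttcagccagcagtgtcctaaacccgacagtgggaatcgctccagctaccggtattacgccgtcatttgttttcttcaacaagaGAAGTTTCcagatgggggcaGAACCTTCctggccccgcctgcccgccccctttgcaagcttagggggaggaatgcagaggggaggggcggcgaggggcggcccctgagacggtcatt
Hspd1: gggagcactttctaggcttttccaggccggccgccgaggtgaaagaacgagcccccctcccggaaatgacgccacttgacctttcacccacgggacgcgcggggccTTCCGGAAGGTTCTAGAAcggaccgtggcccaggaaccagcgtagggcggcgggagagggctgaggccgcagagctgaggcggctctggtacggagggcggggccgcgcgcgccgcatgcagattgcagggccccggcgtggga
Hspa5: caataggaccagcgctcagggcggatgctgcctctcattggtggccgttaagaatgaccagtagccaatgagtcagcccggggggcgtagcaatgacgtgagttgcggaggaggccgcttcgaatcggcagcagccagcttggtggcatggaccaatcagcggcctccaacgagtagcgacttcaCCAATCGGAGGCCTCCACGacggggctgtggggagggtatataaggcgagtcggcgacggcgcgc

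The promoters of Hspa1a and Hspa1b differed at 3 of 250 positions, counted from 1 at the 5′ end of the printed run: C44T, T47C and T249G, with the Hspa1a base first. Both held GAAGATTC, beginning 104 bases before the start. Hspb1 held 2 such matches, beginning 117 and 97 bases before the start. Hspd1 held an unbroken run of 3-unit matches beginning 144 bases before the start, in which the 2-unit and 3-unit matches overlap, while its other RefSeq entry held none. Hspa5 held the stress element of the endoplasmic reticulum 65 bases before the start. Hsph1 held 1 heat shock match of 2 units in each of its RefSeq entries, and Dnajb1 held no match to any of these letters. Among 32851 RefSeq promoter windows of this length, 12.8% held a 2-unit match, 0.466% a 3-unit match and 0.113% the stress element. A match describes letters in a window and is not a measured binding site.

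Intensities were analysed as log2(intensity + 32), which understates changes of dim genes, and all differences below are on that scale unless a fold is named. Each gene was represented by its brightest probe set, and 13543 genes that rose above the 40th percentile of all values on at least 2 arrays were tested with limma. All 9 measured members and 21 of their 23 probe sets passed this filter, and the others were dim sets of Hsp90aa1. The model fitted origin and genotype together, errors after ± are limma's moderated SE, and a difference was called when its Benjamini-Hochberg adjusted p over all genes lay under 0.05. In comparisons of origins the control and the mutant array stood as the 2 replicates, and nothing in the labels gives further replicate samples, so p-values measure only the spread left between these arrays. The p75 arrays also stood apart in the 3′ to 5′ ratio of the Gapdh control probes, 2.82 in the control and 4.91 in the mutant against 0.700 to 0.986 elsewhere. They did not stand apart in that ratio of the Actb control probes, 1.57 and 1.65 against 1.42 to 1.94 elsewhere. The 3′ control probe set of 18S ribosomal RNA did stand apart, at 1915 in the p75 control and 4774 in the p75 mutant against 169 to 629 elsewhere. The part of these ratios and of the 18S values in the p75 results was not tested. In bulk RNA, fewer cells of a type and less RNA per cell cannot be told apart.

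Of the 9 measured members 7 differed between p75-sorted cells and the mean of the other 3 origins, 4 of them higher and 3 lower. Hspa1a, Hspa1b, Dnajb1 and Hsph1 were higher, and Hspb1, Hsp90aa1 and Hspd1 were lower. Of all tested genes 47.1% were called in this comparison, and the count of 7 among 9 is to be read beside that share. The median difference was 0.15 over the members and 0.07 over all genes. The direction followed no single rule across the members, since both inducible HSP70 genes were higher and Hsp90aa1, the inducible cytosolic HSP90, was lower. The probe sets of Hspa1a and Hspa1b may each read both genes, and the direction of Hsph1 depended on the probe set, as given below.

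Hspa1a, 1 of the stress-inducible HSP70 genes, was bright only in p75-sorted cells. Its intensity was 320.4 in the p75 control and 158 in the p75 mutant, 2.76 and 28.1 in the LM control and mutant, 14.6 and 24.4 in OFT, and 24.3 and 21.15 in UM. Both p75 arrays lay above all 6 others, which were near the intensity of 19.4 that set the filter. The difference was 2.36 ± 0.24, or 5.13-fold (limma adjusted p = 1.7e-05). This call was kept in all 16 alternatives. Because the other arrays were dim, the size depended on the pseudocount, with 3.73 at a pseudocount of 1 and 1.47 at 100.

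Hspa1b, the adjoining copy of Hspa1a, gave an intensity of 635 in the p75 control and 227 in the p75 mutant. It gave 138 and 175 in the LM control and mutant, 93.3 and 173 in OFT, and 250.5 and 119 in UM. The p75 control stood highest, but the p75 mutant lay below the UM control, so the groups overlapped. Hspa1b was higher in p75 cells by 1.18 ± 0.31, or 2.26-fold (limma adjusted p = 0.0082). The call rested on 1 array: without the p75 control the difference was 0.48 with an adjusted p of 0.35, and with a pseudocount of 1 the adjusted p was 0.088.

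The other Hspa1b probe sets separated the origins further. Probe set 1427127_x_at read 734 and 124 in the p75 control and mutant and 52.5 to 102 on the other 6 arrays. Probe set 1427126_at read 481 and 98.3 in p75 cells and 26.4 to 54.1 elsewhere. On both of these probe sets the p75 arrays lay above the rest without overlap. In a fit across all 31057 probe sets, 44.6% of which were called, the 4 probe sets of Hspa1a and Hspa1b were all higher in p75 cells, by 2.36, 1.18, 1.75 and 1.72. The Hspa1a and Hspa1b transcripts are nearly the same in coding sequence, so each of these probe sets may read both genes, and the assignment to 1 copy is uncertain.

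**Figure D1:**
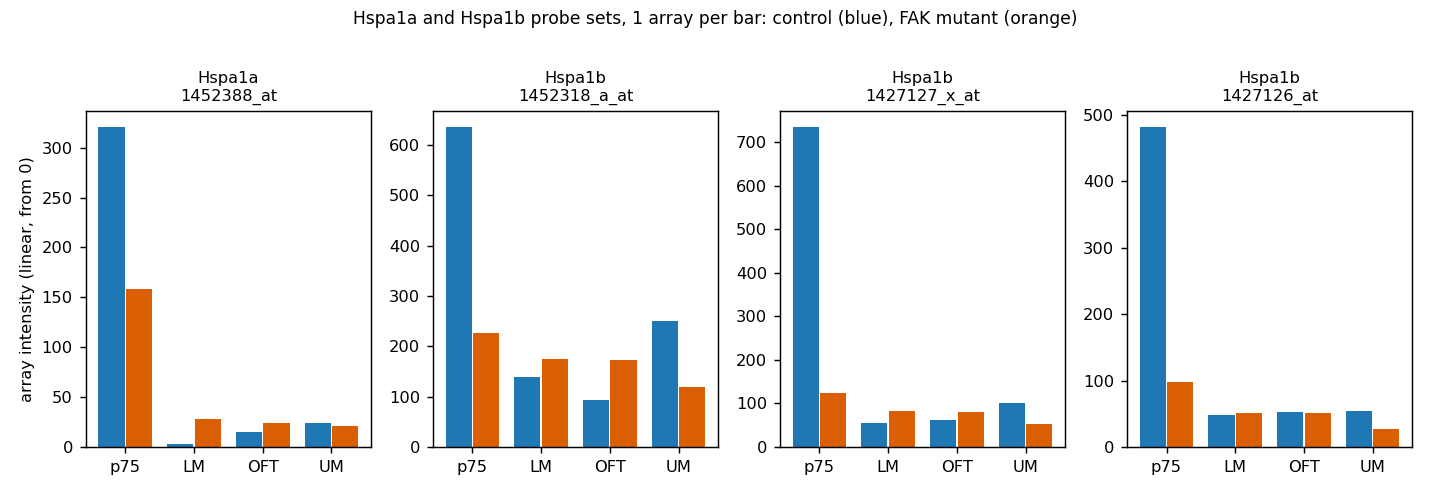
Array intensity on a linear axis from 0 for the 4 probe sets of Hspa1a and Hspa1b, with 1 bar per array, controls in blue and FAK mutants in orange, and a separate axis for each probe set. The p75 control bar is the tallest in every panel, at 320.4, 635, 734 and 481, and the p75 mutant bar is lower than it in each.

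The immediate early genes, which many stimuli induce quickly and briefly, moved with this contrast. Of 15 such genes 14 were called higher in p75 cells, with a median of 1.75 and beside 47.1% of all genes, and their summed intensity was 20652 in the p75 control and 17724 in the p75 mutant against 1950 to 3030 on the other arrays. Fos was higher by 6.06 ± 0.16 and Egr1, an early growth response factor, by 4.84 ± 0.17. Neuron markers were also higher in 6 of 6 cases, with sums of 4886 and 2669 in p75 cells against 376 to 3640 elsewhere. The list of immediate early genes was chosen with earlier results of these data known, so its count is only a description. The part of the immediate early genes and of the neurons in the Hspa1a and Hspa1b result was not tested.

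Dnajb1, the DnaJ partner of inducible HSP70, had an intensity of 1583 in the p75 control and 2009 in the p75 mutant. It was 1285 and 1132 in the LM control and mutant, 850.5 and 1079 in OFT, and 1072 and 1052 in UM. Both p75 arrays exceeded all others. The difference was 0.72 ± 0.16, or 1.65-fold (limma adjusted p = 0.0025). Its second probe set, 1416756_at, gave a difference of -0.38 ± 0.16 (adjusted p = 0.065), in the opposite direction, and with the mean of both probe sets the difference was 0.17 with an adjusted p of 0.22. Without the p75 mutant the adjusted p was 0.087.

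Hsph1, the HSP110 nucleotide exchange factor of HSP70, split by probe set. Its brightest set, 1425993_a_at, read 1967 and 2169 in the p75 control and mutant, 2071 and 1636 in LM, 1523 and 1427 in OFT, and 1201 and 1471 in UM. These p75 values overlapped the LM control. The difference of 0.42 ± 0.16 was just called over genes (limma adjusted p = 0.044), but the call was lost in 8 of 16 alternatives, in which the difference stayed between 0.33 and 0.51. It was 0.51 without the p75 control (adjusted p = 0.112) and 0.33 without the p75 mutant (adjusted p = 0.325). The adjusted p was 0.091 without the LM mutant, 0.068 without the OFT control, 0.098 without the OFT mutant and 0.089 without the UM control.

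The second Hsph1 probe set, 1423566_a_at, went the other way. It read 414 and 387 in p75 cells, 1280.0 and 1494 in LM, 962 and 1033 in OFT, and 1147 and 1071 in UM. The p75 arrays were the lowest, with no overlap. The difference was -1.45 ± 0.15 (limma adjusted p = 1.2e-05 over probe sets). With the mean of both sets the gene was called lower in p75 cells, by 0.52, with an adjusted p of 0.0030. The direction of Hsph1 in p75 cells therefore depended on the probe set.

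**Figure D2:**
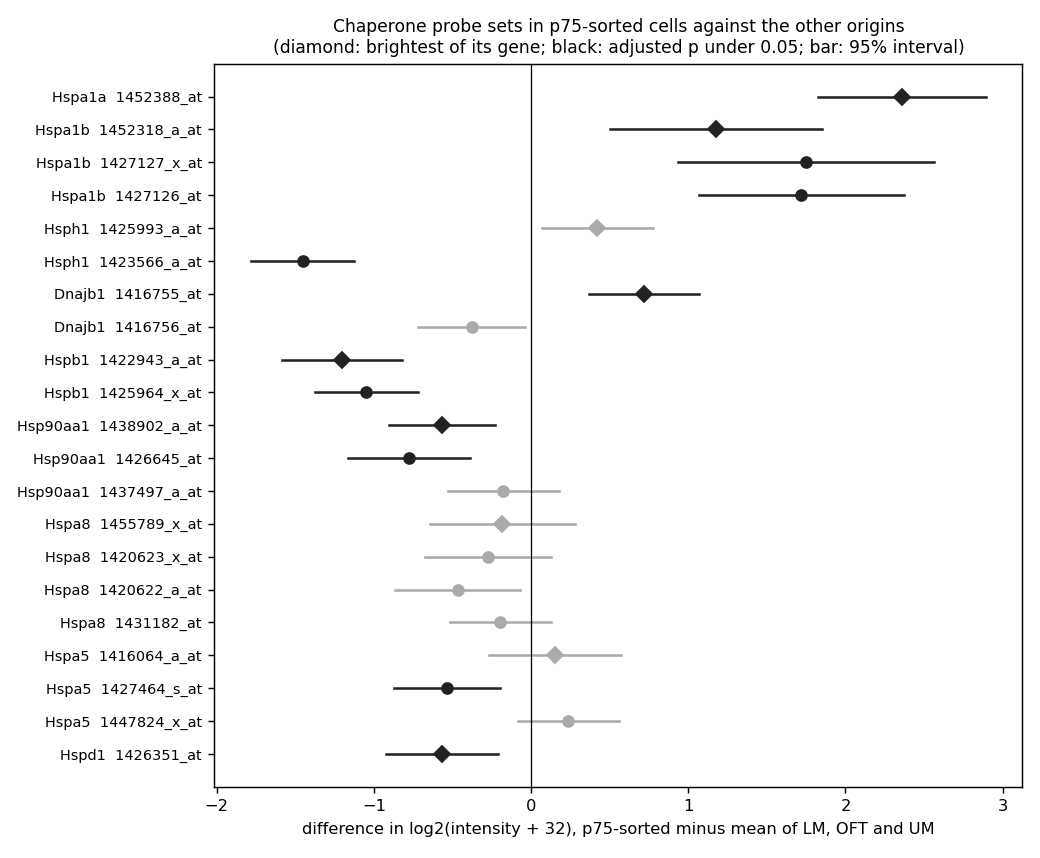
Difference in log2(intensity + 32) between p75-sorted cells and the mean of the other 3 origins for the 21 tested chaperone probe sets, with 95% intervals, diamonds for the brightest set of each gene and black for adjusted p under 0.05. The 4 sets of Hspa1a and Hspa1b lie to the right, at 1.18 to 2.36, both Hspb1 sets lie to the left, and the sets of Hsph1 lie on opposite sides, at 0.42 and -1.45.

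Other cytosolic co-chaperones showed mixed directions in p75 cells. Of 22 tested genes in a list of 23, 6 were called higher and 4 lower, with a median of 0.04, a share near the 47.1% of all genes. Ahsa2, a relative of the HSP90 ATPase activator, was higher by 1.002 ± 0.15, the BAG domain exchange factor Bag3 by 0.79 ± 0.14 and the HSP70-binding protein Hspbp1 by 0.78 ± 0.16. In the list of heat shock factor genes 3 were tested, including Hsbp1, which encodes a binding partner of heat shock factor. Hsbp1 was called lower by 1.69 ± 0.17, beside 47.1% called among all genes. Neither of the tested heat shock factors, Hsf2 and Hsf4, was called. Hsf1 is not analysed here.

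Hspb1, the small heat shock protein HSP27, gave the clearest difference between origins outside the p75 comparison. Its intensity in OFT was 1023 for the control and 1124 for the mutant. It was 149.6 and 141 in the p75 control and mutant, 319.8 and 252 in LM, and 129 and 201 in UM. Both OFT arrays were above all others by a wide margin, and p75 and UM overlapped. Hspb1 was higher in OFT than in the mean of LM and UM by 2.16 ± 0.18, or 4.47-fold (limma adjusted p = 6.2e-06).

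It was the only member of 9 called in the comparison of OFT with LM and UM, in which 15.2% of all genes and 12.1% of all probe sets were called. The members' median difference was -0.15, against 0.01 over all genes. Probe set 1425964_x_at of Hspb1 gave the same direction, with 614 and 712 in OFT against 109 to 179.85 elsewhere and a difference of 1.87 ± 0.16 (adjusted p = 8.5e-06 over probe sets). In the comparison of p75 cells with the other 3 origins together, Hspb1 differed by -1.201 ± 0.17 (limma adjusted p = 0.00016), a comparison that includes the high OFT arrays. Taken origin by origin, p75 cells were lower than OFT by 2.64 and lower than LM by 0.84, and the difference from UM, -0.13, was not called.

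**Figure D3:**
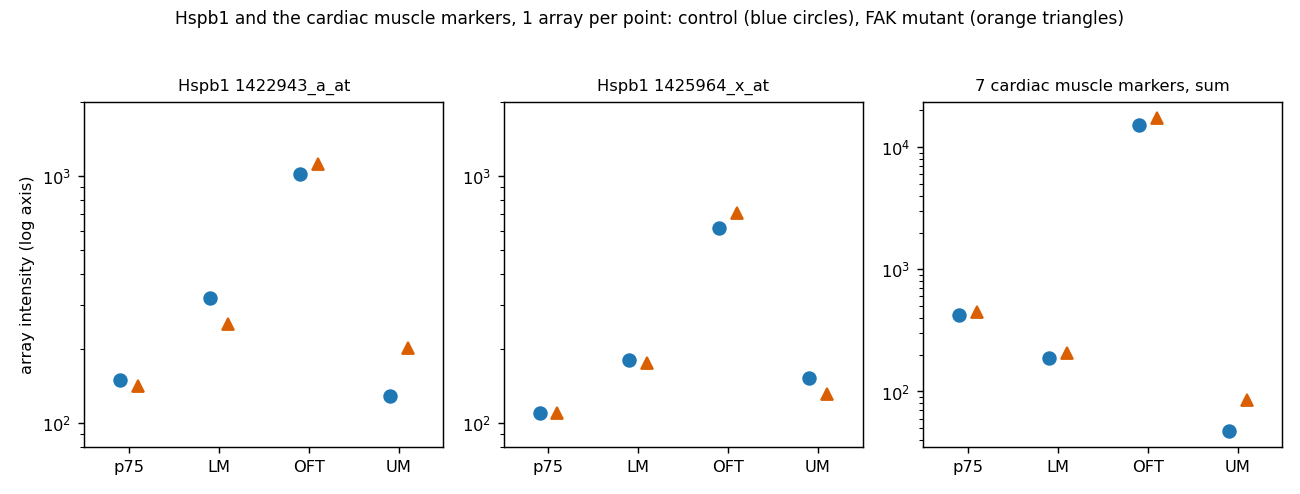
Array intensity on a log axis for both Hspb1 probe sets and for the sum of 7 cardiac muscle markers, with 1 point per array, blue circles for controls and orange triangles for FAK mutants. The OFT arrays are highest in each panel, at 1023 and 1124 for the brightest Hspb1 set and at 15160 and 17491 for the marker sum.

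Other small heat shock protein genes, several of which are known from muscle, were also higher in OFT. Of 6 tested, 4 were called higher and none lower, beside 15.2% called among all genes, and the median was 1.26. This list was chosen with earlier results of these data known, so the count is only a description. Cryab, the lens and muscle protein alpha-B-crystallin, was higher by 3.30 ± 0.16, Hspb7 by 2.78 ± 0.16 and Hspb2 by 1.30 ± 0.15. All 7 cardiac and all 4 smooth muscle markers were called higher in OFT as well, and the smooth muscle sum was 5616 and 6122 there against 110 to 2621 elsewhere. The part of the muscle content in the Hspb1 difference was not tested. Cytosolic co-chaperones were called higher in 4 of 22 cases and lower in none, led by Bag3 at 0.91 ± 0.15 and the DnaJ protein Dnajb4 at 0.89 ± 0.18, with a median of 0.00, a share near the 15.2% of all genes.

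Hsp90aa1, the inducible cytosolic HSP90, was lower in p75 cells than in the other origins together. Its brightest probe set read 4545 and 3983 in the p75 control and mutant, 7851 and 7625 in LM, 4572 and 5597 in OFT, and 6380.0 and 6474 in UM. Both p75 arrays were under all 6 others, although the p75 control was close to the OFT control. The difference was -0.57 ± 0.15 (limma adjusted p = 0.0080). It was lost without the p75 mutant (adjusted p = 0.16) and under quantile normalization (0.12). Of the other probe sets that passed the filter, 1426645_at was called lower by 0.78 and 1437497_a_at, at -0.18, was not called and was lower on average in OFT than in p75 cells. The brightest set did not pass between p75 and OFT either (-0.25, adjusted p = 0.32).

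Hspa8, the constitutive HSP70, was not called in any comparison of origins by its brightest probe set. That set read 8139 and 11024 in the p75 control and mutant, 15739 and 9899 in LM, 9446 and 9389 in OFT, and 8747 and 12855 in UM. Both LM arrays lay above both OFT arrays, and every other pair of origins overlapped. Probe set 1420622_a_at read 2564 and 2313 in p75 cells, 3816 and 5816 in LM, 2115 and 2289.5 in OFT, and 4180.4 and 3309 in UM. On it, OFT lay below LM and UM without overlap, with a difference of -0.92 ± 0.20 (limma adjusted p = 0.0087 over probe sets). The brightest set is of the x type, which can match several transcripts. Without x and s types Hspa8 rested on 1420622_a_at and was also called lower in p75 cells, at -0.47 (limma adjusted p = 0.046 over genes). In the fit over probe sets the same difference was not called (limma adjusted p = 0.055).

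Hspa5 encodes BiP, the HSP70 of the endoplasmic reticulum and a standard readout of the unfolded protein response. Its brightest set read 6460.5 and 7636 in the p75 control and mutant, 8259 and 5314 in LM, 6817 and 6393 in OFT, and 5018 and 6684 in UM. No origin stood apart, and the p75 difference of 0.15 ± 0.19 was not called. Set 1427464_s_at, at 2467 and 1942 in p75 cells against 2865 to 3386 elsewhere, was called lower by 0.53 (limma adjusted p = 0.014 over probe sets). Under quantile normalization the brightest set was called higher, by 0.48.

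The endoplasmic reticulum list shifted in both directions in p75 cells. Of 21 tested genes 9 were called higher and 4 lower, beside 47.1% called among all genes, with a median of -0.03. The disulfide isomerase gene Pdia3 was lower by 1.35 ± 0.15 and Pdia4 lower by 1.10 ± 0.20, while P4hb, another isomerase, was higher by 1.24 ± 0.16. In OFT against LM and UM, 2 of 21 were called higher, P4hb at 0.78 ± 0.17 and the DnaJ protein Dnajb9 at 0.66 ± 0.19, and none lower, below the 15.2% share of all genes.

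Hspd1, the mitochondrial HSP60, read 3138 and 3549 in the p75 control and mutant, 6534 and 4982 in LM, 4500.2 and 4732 in OFT, and 4251 and 5037 in UM. Both p75 arrays were the lowest, with no overlap. The difference was -0.57 ± 0.16 (limma adjusted p = 0.012). The call was lost with a pseudocount of 1 (-0.57, adjusted p = 0.057), without the p75 control (-0.47, adjusted p = 0.15) and without the p75 mutant (-0.67, adjusted p = 0.064), while the size was largely kept. Hspe1, the HSP10 that caps the HSP60 ring, was also lower, by 1.41 ± 0.16, whereas Lonp1, a matrix protease, was higher by 1.59 ± 0.15. Of 8 mitochondrial chaperones and proteases 2 were called higher and 2 lower, and the cytosolic chaperonin and prefoldin list had 2 higher and 4 lower of 13. Both shares were near the 47.1% of all genes. The prefoldin subunit Pfdn5 had the largest called difference of its list, -2.42 ± 0.17.

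Comparing origins in pairs, 7 of the 9 members had at least 1 called difference, and Hspa8 and Hspa5 had none. Background shares of called genes were 41.8% for p75 against LM, 34.4% for p75 against OFT, 41.7% for p75 against UM, 10.9% for OFT against LM, 12% for OFT against UM and 1.55% for LM against UM. Between LM and UM no member was called, and 0.763% of probe sets were. The members called were 3 higher and 3 lower in p75 against LM, 3 higher and 1 lower against OFT, 3 higher and 1 lower against UM, and 1 higher in OFT against each of LM and UM. The smallest adjusted p of a member between LM and UM was 0.18, for Hspb1, with a difference of 0.71 ± 0.21. The number of members with a called difference was 4 without the p75 control and 4 without the p75 mutant.

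For Hspa1a, p75 was highest, and the other origins were too dim to be ordered. The order of mean levels ran p75, UM, LM, OFT for Hspa1b. It was p75, LM, OFT, UM for Hsph1 and p75, LM, UM, OFT for Dnajb1. Hspb1 ran OFT, LM, UM, p75, and Hsp90aa1 ran LM, UM, OFT, p75. Hspa8 ran LM, UM, p75, OFT, Hspa5 p75, LM, OFT, UM, and Hspd1 LM, UM, OFT, p75. Neighbours in these orders were called different in 3 places: Hspa1a between p75 and UM (2.24), Dnajb1 between p75 and LM (0.55) and Hspb1 between OFT and LM (1.81). No other neighbours were called. Among these, 3 had a 95% interval that left out 0 before adjustment: Hspa1b between p75 and UM, at 1.01 (0.18 to 1.84, limma adjusted p = 0.051), Hspb1 between LM and UM, at 0.71 (0.25 to 1.17, adjusted p = 0.18), and Hspd1 between p75 and OFT, at -0.46 (-0.89 to -0.04, adjusted p = 0.086).

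**Figure D4:**
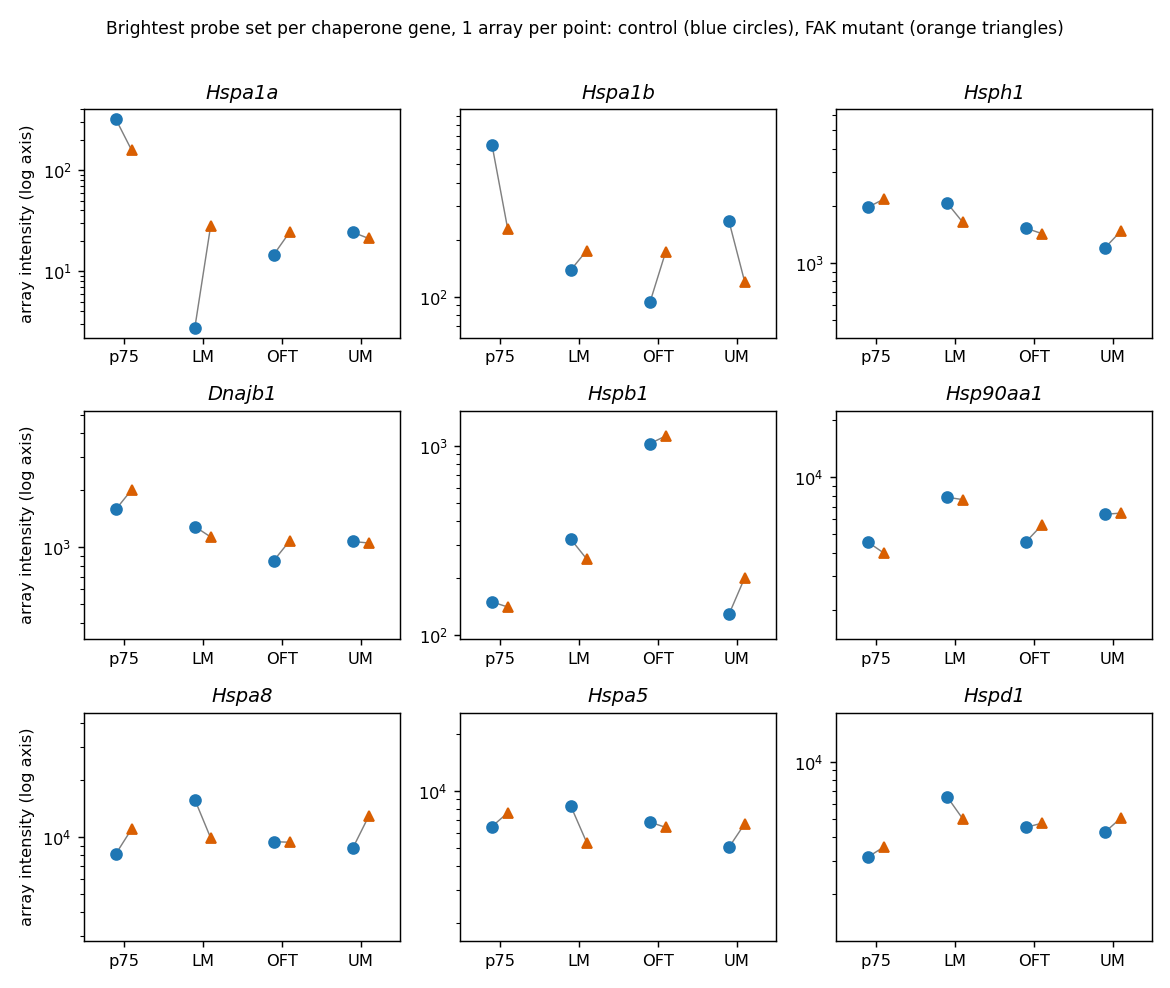
Array intensity on a log axis for the brightest probe set of each of 9 chaperone genes, with 1 point per array, blue circles for controls and orange triangles for FAK mutants of the same origin joined by a line. Hspa1a and Hspa1b peak in the p75 control at 320.4 and 635, Hspb1 peaks in OFT at 1023 and 1124, and for the bright genes Hspa8 and Hspa5 the mutant point is below the control in LM and above it in UM.

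None of the 9 members was called between FAK mutants and controls over the 4 origins (smallest limma adjusted p = 0.9997). Of all 13543 genes 0% were called, 412 had an unadjusted p under 0.05, and of all probe sets 0% were called. The median difference was 0.02 over the members and -0.01 over all genes. The difference with the widest interval was that of Hspa1b, at -0.32 with a 95% interval of -0.90 to 0.27, and the narrowest interval was that of Hsp90aa1, -0.26 to 0.30. The other Hspa1b probe sets gave -0.59 (-1.29 to 0.12) and, for 1427126_at, -0.64 (-1.20 to -0.07, unadjusted p = 0.030), and neither was called (limma adjusted p = 0.9998 over probe sets). All tested genes of the 7 lists of related genes were likewise uncalled.

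Within origins the mutant and control arrays differed in either direction, and these differences carry no test. Of 36 member differences 9 were at least 0.5 from 0: 2 in p75, 3 in LM, 1 in OFT and 3 in UM. The share of all genes that far from 0 was 10% in the p75 pair, 12.7% in LM, 7.18% in OFT and 7.74% in UM. Hspa1b was lower in the mutant of the p75 pair by 1.36 and of the UM pair by 0.90, and higher by 0.28 in LM and 0.71 in OFT. Its other probe sets were lower in the p75 mutant by 2.30 and 1.98, but in the OFT pair they gave 0.25 and -0.04, so the OFT difference stood on the brightest set alone. By its brightest set Hspa1b ranked 2nd from the lowest of 13543 genes in the p75 pair and 35th in the UM pair. In the other direction, its rank from the lowest was 11247 in the LM pair and 13483 in the OFT pair.

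Hspa1a was lower in the p75 mutant by 0.89 and higher in the LM mutant by 0.79, where the control intensity was only 2.76 and the difference was 2.95 with a pseudocount of 1 and 0.32 with 100. The other members differed by less than 0.5 in the p75 pair. In that pair 13 of 15 immediate early genes were also below 0, with a median of -0.33, and all 6 neuron markers were below 0, with a median of -0.76. The Gapdh ratio differed too, as given above, while the Actb ratio was 1.57 in the p75 control and 1.65 in the p75 mutant. The part of these in the Hspa1a and Hspa1b values was not tested.

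Of the 4 brightest members, Hspa8, Hspa5 and Hspd1 lay below 0 in the LM pair and above 0 in the UM pair. Hspa8 was lower by 0.67 in the LM mutant and higher by 0.55 in the UM mutant, Hspa5 lower by 0.63 in LM and higher by 0.41 in UM, and Hspd1 lower by 0.39 in LM and higher by 0.24 in UM. Hsp90aa1, also among them, was at -0.04 in LM and 0.02 in UM, and at -0.19 in p75 and 0.29 in OFT. Over the 162 genes with a mean log2 value of at least 12, which include 4 members, the median pair difference was -0.39 in LM, 0.31 in UM, 0.28 in p75 and -0.02 in OFT. In LM 88.9% of these bright genes were below 0. Under quantile normalization the Hspa8 difference was 0.065 in LM and 0.048 in UM and that of Hspa5 was -0.26 and 0.19. Hspa8 set 1420622_a_at gave 0.60 in LM and -0.33 in UM. Cyclic loess normalization, added after seeing the data, kept the direction of Hspa8 in both pairs, at -0.38 and 0.32. The direction of Hspa8 thus turned with the probe set in both pairs, and with quantile normalization in LM but not in UM. For Hspa5, set 1427464_s_at gave 0.07 in LM and -0.20 in UM, and set 1447824_x_at gave 0.23 and 0.11. With the mean of its probe sets Hspa5 was at -0.11 in LM and 0.11 in UM. The direction of Hspa5 thus also turned with the probe set in both pairs.

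**Figure D5:**
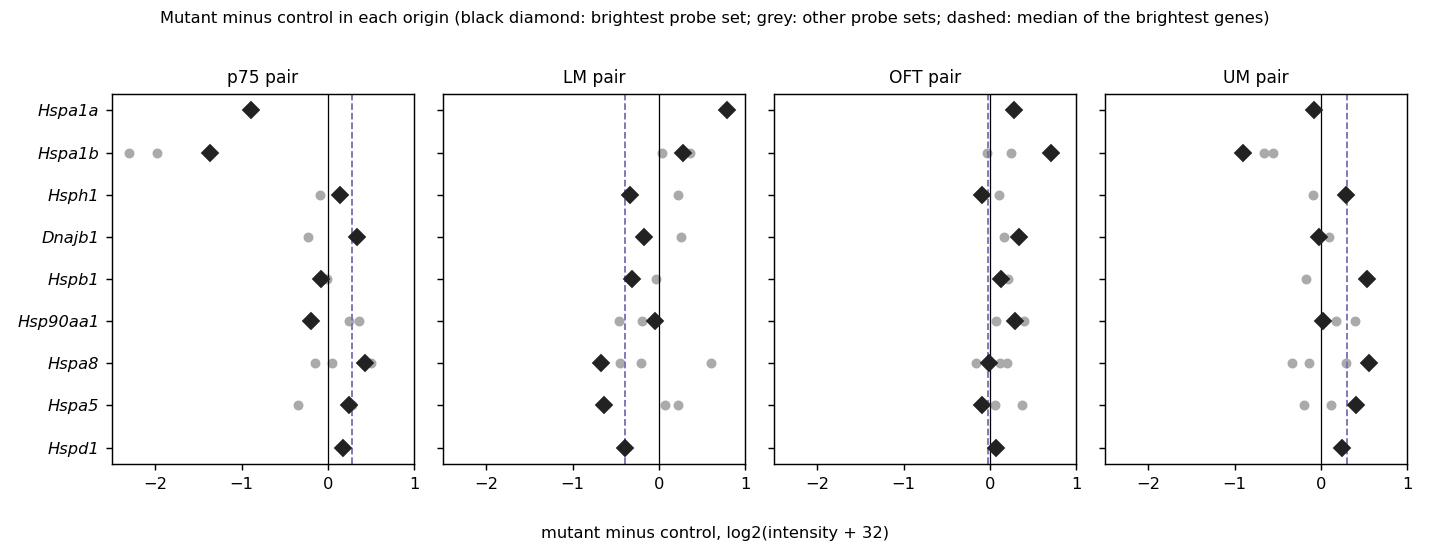
Mutant minus control in log2(intensity + 32) for each chaperone gene in each origin, with black diamonds for the brightest probe set, grey points for the other probe sets that passed the filter and a dashed line at the median of the 162 brightest genes. The Hspa1b sets lie at -2.30 to -1.36 in the p75 pair. The brightest sets of Hspa8 and Hspa5 lie on the same side of 0 as the dashed line in LM, at -0.39, and in UM, at 0.31. Some other sets of both genes lie on the opposite side in LM and in UM.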

How the data were processed

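The authors deposited linear array intensities, 1 for each probe set. Which software produced them is not stated in the labels or files used here. The trimmed mean intensity was 150.0 on every array, which shows a scaling per array, and none was added. Precision is limited by having 8 arrays.

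Gene names came from the platform annotation, in which 34945 probe sets had 1 gene, 932 several and 9160 none, and these last stayed unnamed. The limma fit (version 3.58.1, under R 4.3.3) used log2(intensity + 32), lmFit and eBayes, with 3 residual and 9.18 prior degrees of freedom. Control and mutant arrays were paired by origin; their deviations from the genotype means correlated at 0.62 to 0.88. The fit was tested on simulated data with independent noise and few changed genes. That setting lacks the widespread differences and shared shifts of these arrays, so it does not check the fit under them.

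Named genes are all members, up to 3 examples per list of related genes with the largest called difference, and, for 3 members, the 5 genes of most similar pattern. The members and lists were chosen with earlier results of these data known. Alternatives covered the pseudocount, filter, normalization, probe set choice, variance trend, the term for origin and leaving out each array or pair. Cyclic loess normalization was added after seeing the data.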

Additional observations from a re-analysis of the deposited data

Results flagged for a closer look

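The mutant minus control difference of 3 members was at least 0.5 from 0 in opposite directions in different origins. Each origin has 1 array per genotype, so the difference between origins was not tested. Hspa1a, an inducible HSP70, was -0.89 in the p75 pair and 0.79 in the LM pair, where the control intensity was 2.76. That LM value was 2.95 with a pseudocount of 1 and 0.32, under the limit of 0.5, with 100. Hspa1b, its near-identical copy, was -1.36 in the p75 pair and 0.71 in the OFT pair. Its other probe sets gave 0.25 and -0.04 in the OFT pair, and with the mean of its probe sets the OFT value was 0.31, under the limit. Hspa8, the constitutive HSP70, was -0.67 in the LM pair and 0.55 in the UM pair, and its set 1420622_a_at gave 0.60 and -0.33.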

How the results depend on the processing

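The calls of Hspa1a and Hspb1 in p75 cells and of Hspb1 in OFT were kept in all 16 alternatives. In p75 cells 7 members were called, against 4 with a pseudocount of 1 and 3 to 7 when arrays were left out in turn, 3 without the p75 mutant and 4 without the p75 control. In OFT 1 member was called, against 2 with a pseudocount of 100 (Hsp90aa1 added) and 2 when probe sets of a gene were averaged or without the x and s types (Hspa8 added). The members with a called difference between any origins numbered 7, and 4 to 8 when arrays were left out. Pair differences of at least 0.5 numbered 9, and 4 with the mean of probe sets. Hsph1 in p75 cells turned to -0.52 with the mean of probe sets. Hspa8 in the LM pair turned to 0.065 under quantile normalization and 0.60 without x and s types, and in the UM pair to -0.33 without them. Mutant against control gave 0 members in every alternative run, also without a term for origin, and 1 gene without the LM control, the LM mutant or the LM pair. Counts over all genes differed by more than 1.5 times in places: OFT had 2060 called genes, against 1003 with a pseudocount of 1, 631 without the OFT control and 1032 without the OFT mutant, LM against UM had 210, against 64 with a pseudocount of 1, 138 with 100, and 130, 111 and 117 without the LM control, the UM control and the UM mutant, and p75 had 6380, against 3238 without the p75 mutant. The cause of these changes was not tested.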

Other observations

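The genes whose pattern over the 8 arrays was most like that of Hspb1 were Foxa1, Igf2r, Hk2, Fzd1 and Sphkap, with Pearson r of 0.98 to 0.99. Igf2r, the receptor that clears insulin-like growth factor, read 2351 and 2534 in the OFT control and mutant against 357 to 647 elsewhere. For Hspa1b the nearest genes were Atl1, Sarm1, Gsdme, Kdm5d and Egfl6, with r of 0.90 to 0.93. Kdm5d, a Y-linked demethylase gene, read 302 in the p75 control and 85.7 in the p75 mutant and 6.94 to 104 elsewhere. For Hspa5 they were C1qtnf1, Hmga2, Rnf149, Sdc2 and Dcaf7, with r of 0.81 to 0.90. The arrays share origins, and the genes were chosen for their likeness among 4712 candidates, so these values are descriptions.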
